A study of Danio rerio with 14 samples.

Results

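The 5 pigment cell genes described here were tyrp1b and oca2, which act in making melanin, rab32a, which acts in building the melanin organelle, gch2, which acts in making pteridines, and pnp4a, which acts in making guanine. They were chosen by gene symbol, as the genes whose microarray probes carry one of these 5 names. Earlier results of these data were known when the 5 genes were chosen. They had 7 of the 16913 probes that were tested and were 5 of the 8445 genes to which probes could be assigned. Rab32a and gch2 had 2 probes each, and the other genes had 1 probe each.

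Zebrafish carry pigment in several kinds of cells. Melanophores and the retinal pigment epithelium make melanin inside organelles called melanosomes, by enzymes that include tyrosinase and the tyrosinase-related proteins. Xanthophores hold yellow pteridines and carotenoids, and iridophores reflect light from crystals of guanine. A larval eye holds the retinal pigment epithelium as well as melanophores, xanthophores and iridophores, which lie in the choroid and on the surface of the eye. Propylthiouracil (PTU) is a drug that inhibits the making of thyroid hormone. It is not the phenylthiourea, also shortened to PTU, that is used to keep fish larvae free of melanin. The authors of the data nevertheless reported, in an earlier study, that propylthiouracil lowered the pigment of the retinal pigment epithelium in larvae. Pigment was not measured in the data used here.

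RNA was taken from eyes of wild-type zebrafish larvae of the AB strain. PTU larvae were kept in 350 mg/L PTU up to 5 days post fertilization (dpf), and control larvae in medium with none. Eyes were sampled at 5 dpf, at the end of the exposure, or at 8 dpf, after 3 days of all larvae in clean water. In PTU eyes, age and the end of exposure therefore cannot be told apart between 5 and 8 dpf. The same holds for the difference between the PTU effects at 8 and 5 dpf. Each of the 4 groups (control 5 dpf, PTU 5 dpf, control 8 dpf and PTU 8 dpf) had 3 RNA extracts, and each extract came from the eyes of 10 larvae pooled from 1 replicate plate, so that no value belongs to a single larva. The 12 extracts were run on 14 two-colour arrays, each of which held 2 extracts: 6 arrays held a PTU and a control extract of 5 dpf, 4 held a PTU and a control extract of 8 dpf, and 4 held extracts of both ages. Each of those last 4 arrays held replicate 1 of control 5 dpf or replicate 1 of PTU 5 dpf. No other 5 dpf extract shared an array with an 8 dpf extract. Because whole eyes were used, fewer cells of a type and less RNA per cell cannot be told apart.

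Values are log2 ratios of the 2 dyes on an array, so a difference of 1 is a doubling. For each gene, the level of each extract was computed from all arrays and set against the mean of the control 5 dpf extracts. Effects of PTU and of age were fitted over all arrays with the RNA extract as a random effect (limma, p-values adjusted by Benjamini-Hochberg over all 8445 genes), so they can differ slightly from differences between mean levels. A gene is said to have risen or fallen where its adjusted p was below 0.05.

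PTU changed the level of many genes. At 5 dpf, 24.2% of all genes tested were higher and 22.8% lower in PTU eyes, and at 8 dpf 19.6% were higher and 13.2% lower. The arrays of one age ran alike when turned to PTU over control, with a median Pearson correlation over genes of 0.75 at 5 dpf (range 0.60 to 0.83) and 0.67 at 8 dpf (range 0.40 to 0.78). Markers of the eye were measured, with 17 of 21 photoreceptor genes and 16 of 20 lens genes on the list. The control 5 dpf extracts differed in skeletal muscle genes, whose mean level over 18 genes was 0.82 in replicate 2, 0.06 in replicate 1 and -0.88 in replicate 3. Replicate 2 of this group was also the lowest of the 3 control extracts for each of the 5 pigment cell genes. The same held for the mean levels of retinal pigment epithelium (-0.29), photoreceptor (-0.36) and macrophage markers (-0.09). Replicate 3 was the lowest for lens (-0.09), skin (-0.51) and red blood cell markers (-0.62), as for muscle.

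At the end of the exposure, all 5 pigment cell genes differed between PTU and control eyes, 2 being higher (tyrp1b and rab32a) and 3 lower (oca2, gch2 and pnp4a) with PTU. Of all genes, 24.2% were higher and 22.8% lower at that age. After 3 days in clean water, tyrp1b and rab32a were again higher and gch2 again lower, while oca2 and pnp4a passed the test in neither direction. Of all genes, 19.6% were higher and 13.2% lower at 8 dpf. The extracts of PTU and control eyes did not overlap for 5 of 5 genes at 5 dpf and for 3 of 5 at 8 dpf. Among all genes such a separation was common, at 52.0% at 5 dpf and 35.3% at 8 dpf.

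**Figure D1:**
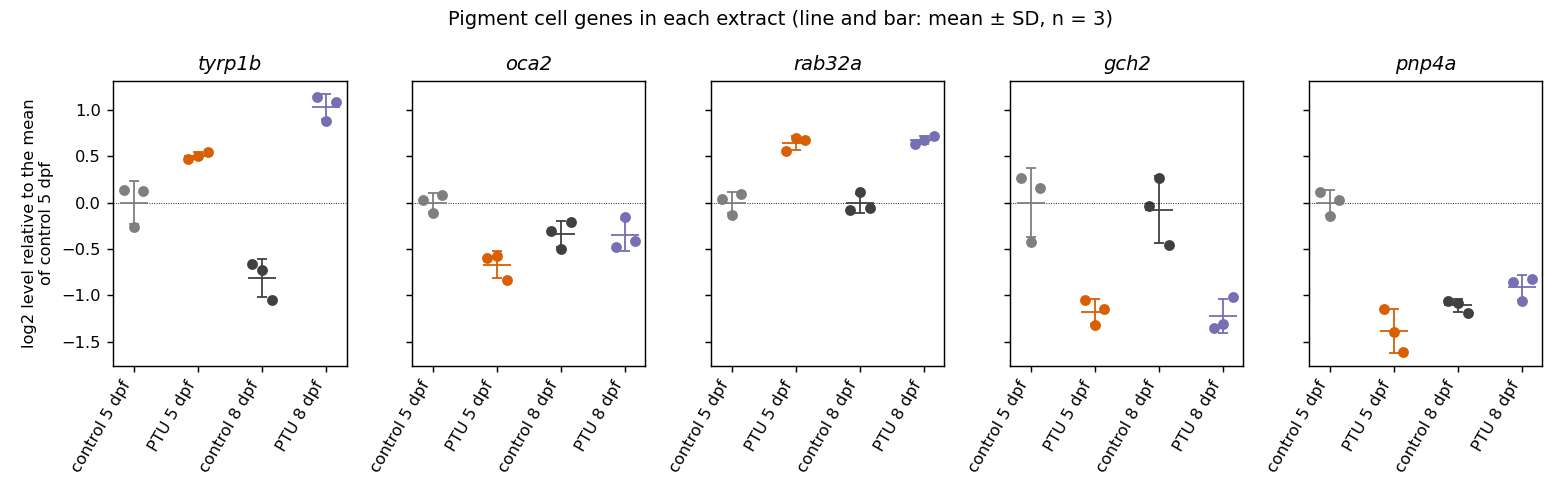
Log2 level of each pigment cell gene (y axis, relative to the mean of control 5 dpf) in each of the 12 RNA extracts, by group (x axis). Points are extracts, and lines with bars are the mean ± SD of 3 extracts. For tyrp1b the groups spread from -1.05 in control 8 dpf to 1.13 in PTU 8 dpf, and for pnp4a 3 of the 4 groups lie below -0.80.

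Tyrp1b encodes a tyrosinase-related protein of the melanosome, an enzyme of melanin synthesis. Its level in the control 5 dpf extracts was 0.14, -0.26 and 0.13, and in the PTU 5 dpf extracts 0.47, 0.50 and 0.54. At 8 dpf it was -0.66, -0.73 and -1.05 in control extracts and 1.13, 0.88 and 1.09 in PTU extracts. The PTU extracts thus stood above the controls at both ages, and the distance between the groups was larger at 8 dpf. The effect of PTU was 0.47 ± 0.14 (log2 fold change ± SE, adjusted p = 0.0127) at 5 dpf, or 1.39-fold. It was 1.88 ± 0.16 (adjusted p = 4.36e-07) at 8 dpf, or 3.68-fold, which placed tyrp1b at rank 40 of 8445 genes from the highest. The rise at 5 dpf did not pass the test without control 5 dpf replicate 2 (0.36, adjusted p = 0.0885) or without PTU 5 dpf replicate 2 (0.44, adjusted p = 0.0707).

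The increase in the PTU effect on tyrp1b from 5 to 8 dpf was 1.40 ± 0.21 (adjusted p = 0.000465). It was made up of a fall in control eyes with age of -0.86 ± 0.20 (adjusted p = 0.0112) and a change in PTU eyes of 0.55 ± 0.20 (adjusted p = 0.0801). Tyrp1b in control eyes therefore fell 1.81-fold from 5 to 8 dpf, whereas PTU eyes showed no such fall. The fall in control eyes lost its call without control 5 dpf replicate 1 (-0.78, adjusted p = 0.219), without PTU 5 dpf replicate 1 (-0.91, adjusted p = 0.0768) and without PTU 8 dpf replicate 2 (-0.67, adjusted p = 0.0648). The ages were linked by 4 arrays, each of which held control 5 dpf replicate 1 or PTU 5 dpf replicate 1. Control extracts of both ages met on 1 of them, and PTU extracts of both ages on 1. The change in PTU eyes passed the test without PTU 8 dpf replicate 1 (0.56, adjusted p = 0.0488).

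Oca2 encodes a membrane transporter of the melanosome that is needed for melanin in fish and mammals. Its level was 0.03, -0.11 and 0.08 in the control 5 dpf extracts and -0.59, -0.58 and -0.84 in the PTU 5 dpf extracts. At 8 dpf it was -0.30, -0.50 and -0.21 in control extracts and -0.48, -0.15 and -0.42 in PTU extracts. The PTU extracts were thus all below the controls at 5 dpf, and the groups overlapped at 8 dpf. The effect of PTU was -0.66 ± 0.09 (adjusted p = 3.35e-05) at 5 dpf, a 1.58-fold lower level, and -0.04 ± 0.10 (adjusted p = 0.825, 95% confidence interval -0.25 to 0.18) at 8 dpf. Oca2 and tyrp1b, both genes of melanin synthesis, therefore moved in opposite directions at 5 dpf.

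The PTU effect on oca2 was higher at 8 than at 5 dpf by 0.63 ± 0.14 (adjusted p = 0.00598), and without control 5 dpf replicate 1 this difference was 0.56 (adjusted p = 0.0811). Neither change of oca2 from 5 to 8 dpf passed the test. The change was -0.36 ± 0.13 (adjusted p = 0.0925) in control eyes and 0.27 ± 0.13 (adjusted p = 0.191) in PTU eyes.

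Rab32a encodes a small GTPase that, in mammals, helps to carry melanin enzymes to the melanosome and also acts in macrophages. Its level was 0.04, -0.13 and 0.09 in the control 5 dpf extracts and 0.55, 0.70 and 0.67 in the PTU 5 dpf extracts. At 8 dpf it was -0.08, 0.11 and -0.06 in control extracts and 0.63, 0.67 and 0.71 in PTU extracts. Control extracts stayed near 0 and PTU extracts near the same higher level at both ages. The effect of PTU was 0.64 ± 0.07 (adjusted p = 2.06e-06) at 5 dpf, or 1.55-fold, and 0.68 ± 0.07 (adjusted p = 5.64e-06) at 8 dpf, or 1.60-fold. No difference between the effects was detected (0.05 ± 0.10, adjusted p = 0.79), with a 95% confidence interval of -0.17 to 0.26.

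Gch2 encodes a GTP cyclohydrolase, the enzyme that starts the making of pteridines, and marks xanthophores in zebrafish. Its level was 0.27, -0.43 and 0.16 in the control 5 dpf extracts and -1.05, -1.32 and -1.15 in the PTU 5 dpf extracts. At 8 dpf it was -0.03, 0.26 and -0.46 in control extracts and -1.35, -1.31 and -1.02 in PTU extracts. The PTU extracts were below all controls at both ages, although the controls of each age spread more widely than for the other 4 genes. The effect of PTU was -1.19 ± 0.16 (adjusted p = 2.09e-05) at 5 dpf, a 2.28-fold lower level, and -1.13 ± 0.18 (adjusted p = 0.000168) at 8 dpf, a 2.19-fold lower level. At 8 dpf gch2 was at rank 72 of 8445 genes from the lowest. The effects at the ages differed by 0.06 ± 0.24 (adjusted p = 0.89), with a 95% confidence interval of -0.44 to 0.57, which leaves room for a sizeable change either way.

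Pnp4a encodes a purine nucleoside phosphorylase that marks iridophores in zebrafish. Its level was 0.12, -0.15 and 0.03 in the control 5 dpf extracts and -1.14, -1.40 and -1.61 in the PTU 5 dpf extracts. At 8 dpf it was -1.06, -1.08 and -1.19 in control extracts and -0.86, -1.06 and -0.82 in PTU extracts. The control 5 dpf extracts thus stood alone at a high level, and the other 3 groups lay far below them. The effect of PTU was -1.38 ± 0.09 (adjusted p = 1.71e-08) at 5 dpf, a 2.61-fold lower level and the largest in size among the 5 genes at that age. At 8 dpf it was 0.21 ± 0.10 (adjusted p = 0.125, 95% confidence interval -0.00 to 0.41).

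The PTU effect on pnp4a was higher at 8 than at 5 dpf by 1.59 ± 0.13 (adjusted p = 3.36e-06), at rank 41 of 8445 genes from the highest. In control eyes pnp4a fell by 1.24 ± 0.12 on the log2 scale from 5 to 8 dpf (adjusted p = 3.17e-05), a 2.36-fold lower level, while in PTU eyes it changed by 0.35 ± 0.12 (adjusted p = 0.0701). The controls thus came down to between -1.19 and -1.06 at 8 dpf, beside -1.61 to -1.14 in the PTU extracts of 5 dpf. Control 8 dpf and PTU 5 dpf were not compared by a test. The change in PTU eyes passed the test without control 5 dpf replicate 2 (0.38, adjusted p = 0.0408).

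Counted over the 5 genes, the difference between the PTU effects passed the test for 3 (tyrp1b, oca2 and pnp4a), each higher at 8 dpf, and for 0 in the other direction, where 11.9% of all genes were higher and 6.92% lower. With age, control eyes showed a fall of 2 genes (tyrp1b and pnp4a) and a rise of 0, against 7.05% and 4.67% of all genes. In PTU eyes, which differed in age and in the end of exposure, 0 of 5 genes changed from 5 to 8 dpf by limma, against 15.5% of all genes. Before adjustment across genes, limma's p was 0.0153 for tyrp1b and 0.0125 for pnp4a and above 0.05 for the other three. The difference between the PTU effects is also the change from 5 to 8 dpf in PTU eyes minus that in control eyes. These contrasts therefore share their extracts.

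**Figure D2:**
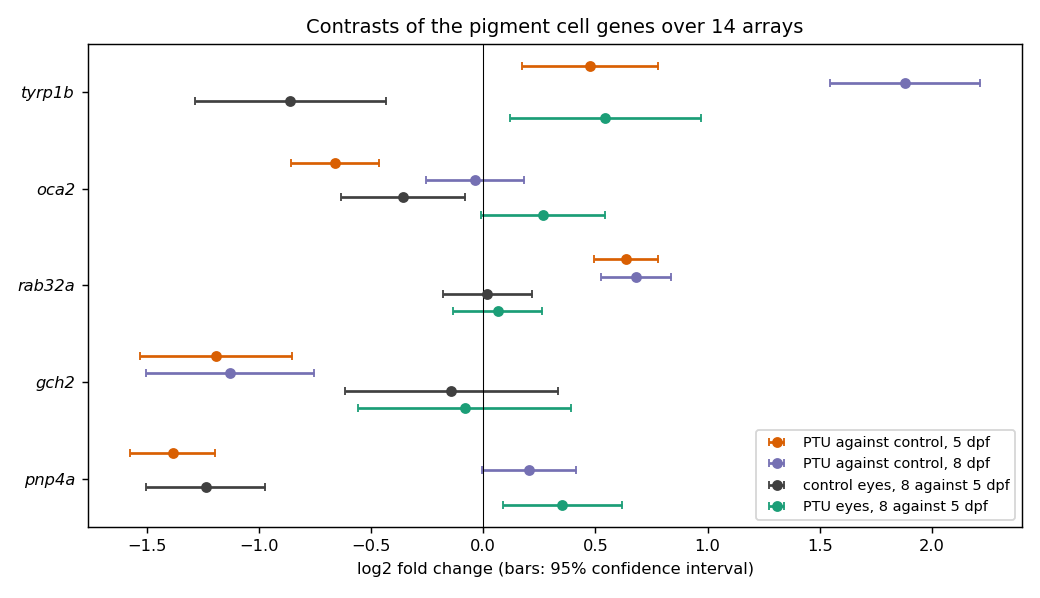
Log2 fold change (x axis) of each pigment cell gene (y axis) in 4 contrasts fitted over the 14 arrays, with bars for the 95% confidence interval. Rab32a and gch2 lie at about the same place with PTU at 5 and 8 dpf, while tyrp1b moves from 0.47 to 1.88 and pnp4a from -1.38 to 0.21.

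The arrays that held a PTU and a control extract of the same age gave the effect directly. They share extracts with each other and are part of the fit, so they are not independent of one another or of the fitted effects. At 5 dpf, the ratio of PTU to control was above 0 on 6 of 6 arrays for tyrp1b (0.09 to 0.93, median 0.56) and for rab32a (0.33 to 0.78, median 0.71). It was below 0 on all 6 arrays for oca2 (-1.12 to -0.37, median -0.62), gch2 (-1.62 to -0.36, median -1.24) and pnp4a (-1.74 to -1.04, median -1.38). Each array at 5 dpf therefore gave the sign of the fitted effect for all 5 genes. At 8 dpf the ratio was above 0 on 4 of 4 arrays for tyrp1b (1.51 to 2.15, median 2.03), rab32a (0.54 to 0.84, median 0.67) and pnp4a (0.16 to 0.33, median 0.21), and below 0 on all 4 for gch2 (-1.57 to -0.68, median -1.05). For oca2 it was above 0 on 1 of 4 arrays (-0.21 to 0.07, median -0.08).

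For tyrp1b at 5 dpf the lowest ratios were on arrays with the PTU extract in Cy5, although the dye directions overlapped. The ratio was 0.55, 0.93 and 0.67 where PTU was labelled with Cy3 and 0.58, 0.09 and 0.15 where it was labelled with Cy5. The arrays with 0.09 and 0.15 also gave the lowest ratios of rab32a (0.33 and 0.49). At 8 dpf the tyrp1b ratio was 2.15 and 2.15 where PTU was labelled with Cy3 and 1.51 and 1.92 where it was labelled with Cy5, without overlap. Each array held a different pair of extracts, and the part of dye in these ratios was not tested. The dyes were balanced over the 6 arrays of 5 dpf, with 3 in each direction. With a term for dye, the effect of PTU on tyrp1b was 0.49 ± 0.10 at 5 dpf and 1.87 ± 0.11 at 8 dpf, and both kept the call.

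**Figure D3:**
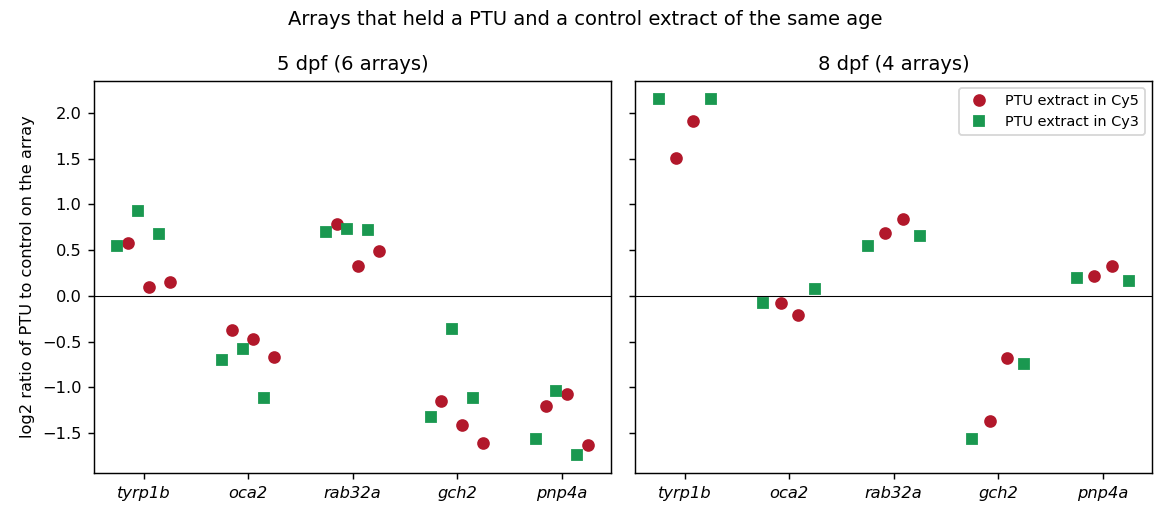
Log2 ratio of PTU to control (y axis) for each pigment cell gene (x axis) on each array that held both at the same age, 6 arrays at 5 dpf (left) and 4 at 8 dpf (right). Circles are arrays with the PTU extract in Cy5 and squares those with it in Cy3. All tyrp1b and rab32a points are above 0 and all gch2 points below 0 at both ages, and pnp4a changes sides.

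A stricter criterion, which asks an adjusted p below 0.05 and a log2 fold change beyond 0.75 (1.68-fold) for each probe with arrays taken as independent, was passed by 8.82% of the 16913 probes at 5 dpf and by 6.39% at 8 dpf. Of the 7 probes of these genes, 3 passed at 5 dpf, being the pnp4a probe (-1.39) and both gch2 probes (-1.17 and -1.22). At 8 dpf 3 passed, being the tyrp1b probe (1.88) and both gch2 probes (-1.01 and -1.24). The 2 rab32a probes gave 0.57 and 0.70 at 5 dpf and 0.74 and 0.62 at 8 dpf and stayed below the threshold for size, so where a gene had 2 probes they moved the same way.

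The pathways to which these genes belong were followed in lists of known genes. Melanin synthesis and the melanosome matrix were measured by 11 of 16 genes listed, and tyr, which encodes tyrosinase, was not among those analysed here. At 5 dpf 2 of the 11 rose (tyrp1b and tspan36) and 7 fell, with a median of -0.47 over the list and of -0.00 over all genes. At 8 dpf 4 rose (tyrp1b, tspan36, pmelb and trpm1b) and 1 fell (slc45a2), with a median of 0.18 over the list and of 0.01 over all genes. Across all genes, the test of PTU against control called 24.2% higher and 22.8% lower in 5 dpf eyes. In 8 dpf eyes it called 19.6% higher and 13.2% lower. The PTU effect was higher at 8 than at 5 dpf for 7 of the 11 and lower for 0, against 11.9% and 6.92% of all genes.

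Among the genes of the melanin list, tspan36, a tetraspanin of pigment cells, was higher with PTU at both ages, by 0.52 ± 0.10 (adjusted p = 0.000714) and 0.84 ± 0.11 (adjusted p = 4.54e-05). Trpm1b, a melastatin-type cation channel, was at -0.54 ± 0.07 (adjusted p = 1.74e-05) with PTU in the younger eyes and at 0.29 ± 0.08 (adjusted p = 0.00985) in the older ones. The next 3 genes were named after their values were seen. Dct, a tyrosinase-related enzyme, fell at 5 dpf (-0.62 ± 0.12, adjusted p = 0.000438), and its 8 dpf effect was 0.27 ± 0.13 (adjusted p = 0.127). Like oca2, dct passed the test of the PTU effect at 5 dpf and not at 8 dpf. Unlike oca2, dct also fell with age in control eyes. Pmelb, which encodes a fibril protein of the melanosome, went from -0.39 ± 0.11 (adjusted p = 0.00784) to 0.69 ± 0.12 (adjusted p = 0.000479). Slc45a2, a transporter needed for melanin, was lower at both ages (-0.71 ± 0.12 and -0.47 ± 0.14, adjusted p = 0.00024 and 0.0165), so genes of the list differed in their course.

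The machinery that builds and moves melanosomes, and related organelles of other cells, was measured by 17 of 36 genes. With PTU 3 rose and 6 fell at 5 dpf (median -0.14), beside 24.2% and 22.8% of all genes. At 8 dpf 3 rose and 1 fell (median 0.03), beside 19.6% and 13.2% of all genes. Rab32a had the highest effect of the list at both ages. Rab38a, a GTPase closely related to rab32a, went the other way at 5 dpf, with -0.59 ± 0.09 (adjusted p = 7.83e-05), and was at -0.08 ± 0.10 (adjusted p = 0.571) at 8 dpf. Dtnbp1b, a subunit of a complex that sorts cargo to melanosomes, was at -0.56 ± 0.08 (adjusted p = 3.83e-05) and -0.00 ± 0.09 (adjusted p = 0.985). The lowest effect was that of zgc:91968 (formerly mreg, whose mammalian counterpart acts in melanosome transfer), with -1.18 ± 0.10 (adjusted p = 2.3e-07) at 5 dpf, and it was still lower with PTU at 8 dpf (-0.39 ± 0.11, adjusted p = 0.0132).

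Genes that specify pigment cells, listed together with the hormone precursor pomca, were measured by 8 of 21. Mitfa, the master regulator of melanophores, was not among those analysed here. At 5 dpf 3 rose, pomca among them, and 1 fell (median -0.05), beside 24.2% and 22.8% of all genes. At 8 dpf 1 rose and 0 fell (median 0.04), beside 19.6% and 13.2% of all genes. Pomca, the precursor of the hormones that disperse pigment and drive the stress axis, was higher with PTU at 5 dpf (1.00 ± 0.14, adjusted p = 2.62e-05), and its effect at 8 dpf was -0.15 ± 0.15 (adjusted p = 0.50). Sox10, a transcription factor of neural crest cells, fell at 5 dpf (-0.46 ± 0.10, adjusted p = 0.0017) and was at 0.02 ± 0.11 (adjusted p = 0.895) at 8 dpf. Tfap2e, a transcription factor of melanophores, was at -0.15 ± 0.09 (adjusted p = 0.187) and then rose (0.43 ± 0.10, adjusted p = 0.00455). Sox9b, also a transcription factor of the neural crest, rose at 5 dpf (0.21 ± 0.07, adjusted p = 0.0315) and was at 0.22 ± 0.08 (adjusted p = 0.0507) at 8 dpf.

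Pteridine and carotenoid pigments were measured by 7 of 19 genes. The same 3 genes, gch2, akr1b1.1 and slc2a15b, fell at both ages, while 0 rose at 5 dpf and 1, pcbd1, rose at 8 dpf. Of all genes, 22.8% fell and 24.2% rose at 5 dpf, and 13.2% fell and 19.6% rose at 8 dpf. Akr1b1.1, an aldose reductase, fell by 1.2 ± 0.10 (adjusted p = 2.53e-07) and 0.82 ± 0.11 (adjusted p = 5.51e-05) on the log2 scale. Slc2a15b, a member of the glucose transporter family whose counterpart in medaka acts in the yellow and white pigment cells, fell by 0.68 ± 0.08 (adjusted p = 8e-06) and 0.40 ± 0.09 (adjusted p = 0.00357). Pcbd1, which recycles a pteridine cofactor, was at -0.04 ± 0.08 (adjusted p = 0.721) at 5 dpf, and its rise at 8 dpf was 0.25 ± 0.09 (adjusted p = 0.0452). The difference between the PTU effects passed the test for 0 of these 7 genes by limma, and 3 were below 0.05 before adjustment. Among all genes that difference was called higher for 11.9% and lower for 6.92%. The list medians were -0.04 and -0.13.

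Guanine synthesis and iridophore genes were measured by 17 of 25. At 5 dpf 2 rose and 7 fell with PTU (median -0.16), beside 24.2% and 22.8% of all genes. At 8 dpf 3 rose and 2 fell (median 0.14), beside 19.6% and 13.2% of all genes. The PTU effect was higher at 8 than at 5 dpf for 9 of the 17 and lower for 1, beside 11.9% and 6.92% of all genes. In control eyes 7 of the 17 fell with age and 0 rose, beside 7.05% and 4.67% of all genes. Apoda.1, an apolipoprotein gene of iridophores, resembled pnp4a, with PTU effects at 5 and 8 dpf of -1.55 ± 0.16 (adjusted p = 1.46e-06) and 0.37 ± 0.17 (adjusted p = 0.12) and a change of -1.12 ± 0.22 (adjusted p = 0.00412) in control eyes. Fhl2b, a LIM domain protein of iridophores, fell with PTU at 5 dpf (-0.75 ± 0.08, adjusted p = 3.44e-06) and was at -0.15 ± 0.09 (adjusted p = 0.222) at 8 dpf. Pnp6, a relative of pnp4a, was lower at both ages (-1.12 ± 0.13 and -0.49 ± 0.15, adjusted p = 5.85e-06 and 0.0179). Pnp5b, a further relative that was named after its values were seen, rose at 5 dpf (0.46 ± 0.10, adjusted p = 0.00141), so members of the phosphorylase family differed in direction. Whether their probes bind RNA of more than 1 family member was not tested.

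**Figure D4:**
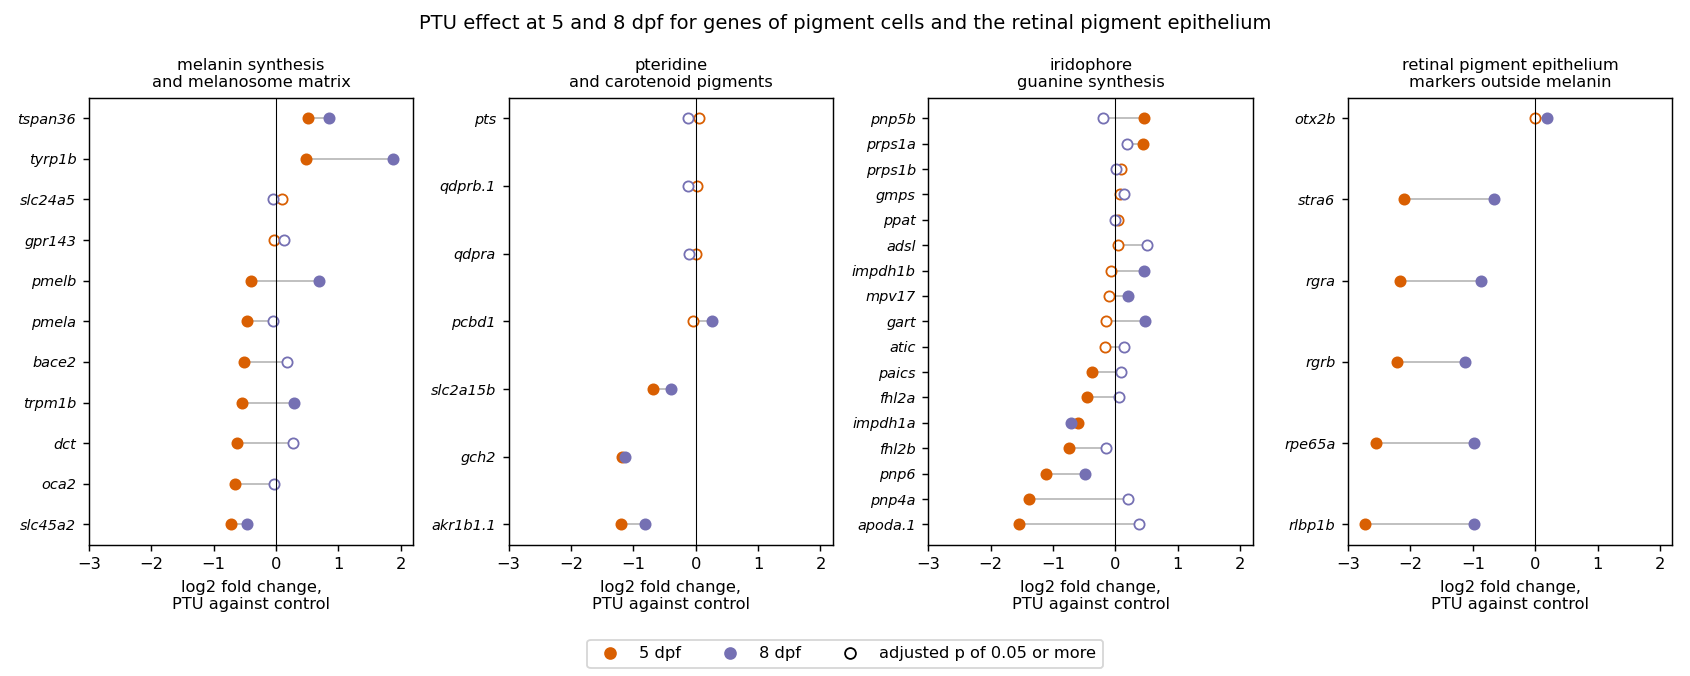
Log2 fold change of PTU against control (x axis) for each measured gene (y axis) of 4 lists, at 5 dpf (orange) and 8 dpf (purple). Filled points had an adjusted p below 0.05, and grey lines join the ages. Most lines of the melanin, guanine and retinal pigment epithelium lists run to the right from 5 to 8 dpf, whereas the points of gch2 (-1.19 and -1.13) nearly coincide.

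Markers of other cells in the eye moved with PTU as well. Genes of the retinal pigment epithelium outside melanin synthesis were measured by 6 of 13. Of these, 5 were lower and 0 higher at 5 dpf, and 5 lower and 1 higher at 8 dpf, with medians of -2.20 and -0.93. Among all genes 22.8% were lower and 24.2% higher at 5 dpf, and 13.2% lower and 19.6% higher at 8 dpf. The gene of the list that rose at 8 dpf was otx2b, a transcription factor (0.19 ± 0.05, adjusted p = 0.0152), and its effect at 5 dpf was -0.01 ± 0.05 (adjusted p = 0.929). The mean level of the list ranged from -0.29 to 0.36 in control 5 dpf, from -1.99 to -1.90 in PTU 5 dpf, from -0.70 to -0.18 in control 8 dpf and from -1.44 to -1.12 in PTU 8 dpf. Rpe65a, the isomerase of the visual cycle and named after its values were seen, fell by 2.56 ± 0.12 (adjusted p = 7.42e-10) and 0.98 ± 0.13 (adjusted p = 4.61e-05) on the log2 scale. The mean level of the list was thus lower in PTU than in control eyes at both ages, while tyrp1b was higher at both, and the part of these markers in the pigment cell genes was not tested.

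Macrophage and microglia markers, measured by 12 of 18 genes, had 10 higher and 0 lower with PTU at 5 dpf and 12 higher at 8 dpf, with medians of 1.40 and 2.16. Their mean level ranged from -0.09 to 0.05 in control 5 dpf, from 1.23 to 1.34 in PTU 5 dpf, from 0.19 to 0.24 in control 8 dpf and from 1.99 to 2.18 in PTU 8 dpf. These markers rose beside rab32a and tyrp1b, and their part in those rises was not tested. Of 16 lens markers, 14 fell and 1 rose at 5 dpf, and 11 fell and 2 rose at 8 dpf. Of 17 photoreceptor markers, 12 fell and 1 rose at 5 dpf, and 6 fell and 5 rose at 8 dpf. Skin markers rose in 3 and fell in 8 of 18 at 5 dpf, and rose in 3 and fell in 6 at 8 dpf. The shares of all genes were 24.2% higher and 22.8% lower at 5 dpf, and 19.6% higher and 13.2% lower at 8 dpf. Muscle markers rose in 5 of 18 at 5 dpf, and red blood cell markers rose in 1 and fell in 1 of 5. At 8 dpf 0 of either list passed the limma test, with or without adjustment of p. Between 5 and 8 dpf in control eyes, 10 of 17 photoreceptor and 4 of 5 red blood cell markers fell and 0 rose. Of the lens markers 2 fell and 0 rose there, and of the macrophage markers 0 fell and 1 rose. Of all genes, 7.05% fell and 4.67% rose with age in control eyes.

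**Figure D5:**
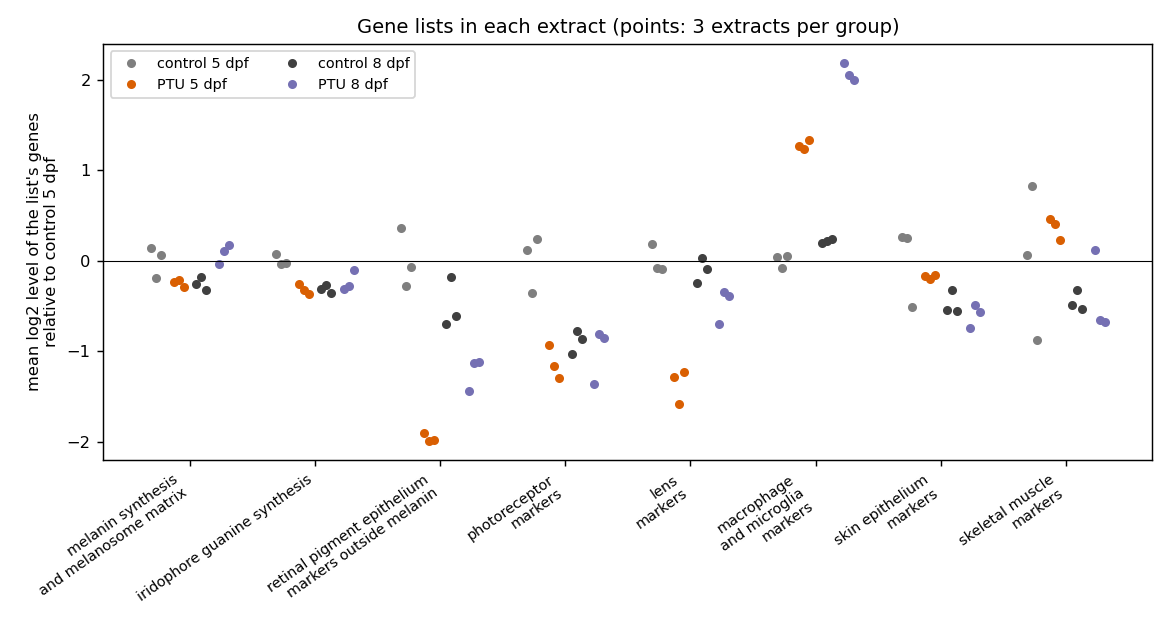
Mean log2 level of the genes of 8 lists (y axis, relative to control 5 dpf) in each of the 12 extracts, by list (x axis) and group (colour). The macrophage list lies between 1.23 and 2.18 in PTU extracts, the retinal pigment epithelium list is lowest in PTU 5 dpf, and the muscle list spreads from -0.88 to 0.82 within control 5 dpf.

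The courses of the 5 genes over the 12 extracts were compared by Pearson correlation, as a description, since the extracts share groups and arrays. Rab32a ran with tyrp1b (r = 0.86) and against gch2 (r = -0.85), and oca2 ran with pnp4a (r = 0.84), while tyrp1b and pnp4a were near 0 (r = -0.06). The genes most alike in course were slc49a4 (r = 0.99), syngr2a (0.95) and ube2t (0.95) for tyrp1b. For oca2 they were cst3 (r = 0.94), mmut (0.94) and arl16 (0.93). For rab32a they were ctsba (r = 0.99), rac2 (0.98) and lgals2a (0.98), and 184 genes had r above 0.9 with rab32a. For gch2 they were lrit3a (r = 0.97), si:dkey-206f10.1 (0.97) and elovl8a (0.97), and for pnp4a defbl1 (r = 0.99), rnf182 (0.97) and fads2 (0.96). The number of genes with r above 0.9 was 46 for tyrp1b, 15 for oca2, 69 for gch2 and 25 for pnp4a, so rab32a followed the most widely shared course and oca2 the least shared.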

How the data were processed

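The authors quantified spots with GenePix Pro, removed spots that on no array reached 2 SD above their local background, corrected background by the normal-exponential method, and normalized by loess within arrays (limma 3.34.4). The deposited log2 ratios set Cy5 over Cy3, and array medians lay between -0.0116 and -0.0011. The log base and direction were taken from the methods and dye labels, since the table states neither. Without single-channel intensities, signal over background was not assessed, and the number of arrays limits precision.

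Of 16914 probes, 1 control was left out, and 13708 of the rest were assigned to 8445 genes (11865 by RefSeq accession, 1446 by current symbol, 391 by older symbol, 6 by platform symbol). Probes of a gene were averaged. Contrasts were fitted in limma 3.58.1 (R 4.3.3) by generalized least squares with a random effect of RNA extract (variance ratio 0.138), with 11 residual and 3.69 prior degrees of freedom. The extracts came from separate plates. On simulated data with 8445 genes, log2 changes of 0.5 and 1 were each given to 50 genes at each age. They were recovered for 64% and 98% of these genes at 5 dpf and 74% and 100% at 8 dpf. Of the calls, 5.81% at 5 dpf and 5.43% at 8 dpf were false. Far more genes were called in the data, 3968 at 5 dpf and 2767 at 8 dpf, so these rates need not hold there.

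The members and lists were chosen with earlier results of these data known. Besides the 5 genes, up to 4 genes per pathway list were named, those with the smallest p at 5 or 8 dpf, and for each of the 5 genes the 3 most correlated genes. Alternatives took arrays as independent, centred each array on its median, scaled arrays to the same spread, or added a dye effect or the replicate number. Others used the most variable probe per gene, the direct arrays alone or robust moderation, or left out each extract. Promoter and protein sequences were not analysed here.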

Additional observations from a re-analysis of the deposited data

Results flagged for a closer look

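The PTU effects at 5 and 8 dpf were compared by limma, and they differed between the ages for 13 of the genes named by the rule for the pathway lists. The remaining genes named by that rule, tspan36, rab32a, sox9b, gch2, akr1b1.1, slc2a15b and pcbd1, did not pass this test. That rule took the smallest p at 5 or 8 dpf in these same extracts, which favours genes whose effects differ. The 13 are therefore a description. Among all genes the effect was higher at 8 dpf for 11.9% and lower for 6.92%. Among the pigment cell genes, the effect was higher at 8 than at 5 dpf by 1.40 for tyrp1b (adjusted p = 0.000465), by 0.63 for oca2 (adjusted p = 0.00598) and by 1.59 for pnp4a (adjusted p = 3.36e-06), on the log2 scale. For tyrp1b the effect was above 0 at both ages and larger at 8 dpf. For oca2 and pnp4a it was below 0 at 5 dpf and did not pass the test at 8 dpf.

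In the melanin and melanosome lists the effect was also higher at 8 dpf for trpm1b, by 0.83 (adjusted p = 0.000126), zgc:91968, by 0.79 (adjusted p = 0.00221), dtnbp1b, by 0.55 (adjusted p = 0.00494), and rab38a, by 0.50 (adjusted p = 0.0173). Trpm1b was the one of these 4 whose effect passed the test in both directions, below 0 at 5 dpf and above 0 at 8 dpf.

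Among iridophore genes it was higher by 1.92 for apoda.1 (adjusted p = 9.41e-05), by 0.59 for fhl2b (adjusted p = 0.00432) and by 0.63 for pnp6 (adjusted p = 0.0357). Among genes of specification it was higher by 0.49 for sox10 (adjusted p = 0.037) and by 0.59 for tfap2e (adjusted p = 0.00871). For pomca the effect was lower at 8 dpf, with a difference of -1.15 (adjusted p = 0.00149). Of the genes named after their values were seen, dct (0.88, adjusted p = 0.00286), pmelb (1.08, adjusted p = 0.000458) and rpe65a (1.58, adjusted p = 5.79e-05) also had a higher effect at 8 dpf, and pnp5b a lower one (-0.66, adjusted p = 0.00624).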

How the results depend on the processing

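Of the contrasts of the 5 genes over all alternatives, 456 kept their direction and their side of the threshold, 19 changed sign, 8 gained a call and 7 lost one, and every change of sign was in a contrast that had not passed the test. The PTU effects on rab32a and gch2 at both ages, on oca2 and pnp4a at 5 dpf and on tyrp1b at 8 dpf were called under each alternative. The causes of the changes were not tested. With arrays as independent, tyrp1b rose from 5 to 8 dpf in PTU eyes (0.55, adjusted p = 0.0401), as it did with scaled arrays (0.60, adjusted p = 0.0484) and with a dye effect (0.54, adjusted p = 0.00846). Pnp4a did so with a dye effect (0.42, adjusted p = 0.0348) and with the replicate block (0.44, adjusted p = 0.0356). With scaled arrays, oca2 was at 0.0031 with PTU at 8 dpf and fell in control eyes (-0.45, adjusted p = 0.0229). With the replicate block, the age change in control eyes was -0.80 for tyrp1b (adjusted p = 0.0535) and -0.016 for rab32a. With the most variable probe, the difference of PTU effects was -0.077 for rab32a and -0.036 for gch2, and the change in PTU eyes was -0.044 for rab32a.

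Leaving out each extract gave these ranges where a sign or call changed. In control eyes gch2 was -0.35 to 0.067, rab32a -0.037 to 0.069 and tyrp1b -0.99 to -0.67. In PTU eyes gch2 was -0.29 to 0.034, pnp4a 0.27 to 0.43, rab32a -0.00077 to 0.10 and tyrp1b 0.39 to 0.72. The difference of PTU effects was -0.21 to 0.29 for gch2, 0.52 to 0.70 for oca2 and -0.0029 to 0.11 for rab32a. The PTU effect was 0.36 to 0.57 for tyrp1b at 5 dpf and -0.11 to 0.024 for oca2 at 8 dpf.

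The replicate numbers were not used to pair the extracts in the main fit. Deviations of same-numbered extracts from their group means correlated at -0.19, 0.13 and -0.09 at 5 dpf and at 0.63, 0.17 and -0.22 at 8 dpf. Some of these pairs shared an array and others did not, so the correlations cannot decide whether the numbers pair the extracts. The block moved the genes called from 3968 to 3695 at 5 dpf and from 2767 to 2424 at 8 dpf. Among the lists, genes of specification that rose at 8 dpf numbered 2 with independent or scaled arrays, and those that rose at 5 dpf 1 with a dye effect. Melanin genes that fell at 8 dpf numbered 0 with a dye effect, and pteridine genes that rose at 8 dpf 0 with the block.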
